A study of Homo sapiens with 9 samples.

Results

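The genes described here were the long noncoding RNAs that host small nucleolar RNAs (snoRNAs), taken as every gene whose symbol is SNHG followed by a number, together with GAS5, ZFAS1, EPB41L4A-AS1, DANCR and MIR17HG. The rule found 33 genes among the 60683 gene identifiers counted. MIR17HG carries microRNAs rather than snoRNAs. The RNA came from HEK293T, an immortal line of human embryonic kidney origin that expresses SV40 large T antigen. Parental HEK293T cells received no reporter. Clone 15 and clone 37 were each grown from a single sorted cell after piggyBac transposition of a pair of luciferase reporters: ATG-(CAG)60-Myc-NLuc, with 60 CAG units, and its companion ATG-(CAG)0-Myc-FLuc, with 0. Per the labels, integrand expression was high in clone 37 and low in clone 15. Since there was 1 clone of each kind, reporter expression and other differences between the clones cannot be told apart. Each group had 3 libraries of ribosomal RNA-depleted total RNA. Nothing in the labels says that the replicates were separate cultures, so p-values measure only the spread between these libraries, which may be technical.

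Gene counts per library summed to between 10334090 and 38093340. Reads were 75 bp long in parental and clone 37 and 100 bp long in clone 15, and the length of the reads cannot be told apart from clone 15. Read pairs that mapped to several places made up 11.9% to 13.95% in parental, 10.4% to 11.7% in clone 37 and 4.59% to 5.98% in clone 15. Of the 15 marker genes examined, the neuronal and kidney genes of the line were present in every group, but not at one level. The neurofilament gene NEFM averaged 559 CPM in parental cells, 2728 in clone 15 and 137 in clone 37, and NEFL averaged 235, 716 and 60.7 CPM. The kidney lineage gene LHX1 averaged 10.6, 13.98 and 21.2 CPM, PAX2 lay between 8.96 and 9.77 CPM, and VIM between 543 and 547 CPM. KRT18 averaged 38.2, 66.9 and 47.0 CPM and KRT8 12.1 to 17.9 CPM. The leukocyte gene CD3E had no counts, and PTPRC, PECAM1, VWF, DCN and ALB averaged under 1 CPM (counts-per-million) in each group. The collagen gene COL1A1 averaged 34.4 CPM in parental cells, 72.7 in clone 15 and 19.4 in clone 37, LUM averaged 0.413 to 2.14 CPM, and the part of these markers in the results was not tested. Parental replicate 2 stood apart from the other parental libraries: 19.2% of its read pairs fell outside annotated exons against 26.4% and 28.8%, and it had the lowest parental level of 20 of the 28 host RNAs that could be tested. Member calls that changed when it was left out are also given without it. In bulk RNA, fewer cells that express a gene and less RNA per cell cannot be told apart.

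SnoRNAs are cut out of introns and guide the modification of ribosomal and spliceosomal RNA. C/D box snoRNAs direct 2'-O-methylation, H/ACA box snoRNAs direct pseudouridylation, and scaRNAs do the same work in Cajal bodies. The spliced exons of a host RNA are exported, and those of several hosts are translated at short reading frames and removed by nonsense-mediated decay, so the steady level of the spliced RNA and the amount of snoRNA made from the same transcript can differ widely. Host genes resemble ribosomal protein genes in that many begin transcription at a C followed by a run of pyrimidines, the terminal oligopyrimidine start that ties their RNA to growth signals. MIR17HG is the primary transcript of the miR-17-92 cluster, a target of MYC and E2F factors.

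By RefSeq (GRCh38.p14), 13 of the 33 genes spanned C/D snoRNA genes only, 11 spanned H/ACA snoRNA genes only, and GAS5 and SNHG12 spanned both kinds. SNHG10, SNHG20, SNHG21 and SNHG22 spanned a scaRNA gene, and MIR17HG, SNHG27 and SNHG28 had none of these. RefSeq start windows were found for 29 members. In 7 of them, 24.1%, the annotated first base was C and the run of C and T that it opened was at least 5 bases long, against 4.07% of all 35116 windows. The search was on the strand of the gene and at the annotated first base alone. These 7 starts are shown because they carry that feature of host genes. Each line holds 10 bases before the start and 30 from it, 5′ to 3′ on the gene's strand, with the run in capitals.
SNHG12: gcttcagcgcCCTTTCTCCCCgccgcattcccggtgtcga
SNHG18: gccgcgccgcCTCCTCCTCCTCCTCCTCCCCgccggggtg
SNHG4: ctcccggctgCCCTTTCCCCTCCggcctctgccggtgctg
SNHG32: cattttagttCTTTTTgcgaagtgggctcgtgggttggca
SNHG5: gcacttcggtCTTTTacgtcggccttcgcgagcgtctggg
SNHG19: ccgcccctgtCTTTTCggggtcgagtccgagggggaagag
ZFAS1: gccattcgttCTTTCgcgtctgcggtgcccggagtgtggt

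These windows lie on the minus strand of chromosome 1 for SNHG12 (28581844 to 28581883), of chromosome 6 for SNHG5 (85678704 to 85678743) and of chromosome 16 for SNHG19 (2155329 to 2155368). On the plus strand lie those of SNHG18 (chromosome 5, 9546190 to 9546229), SNHG4 (chromosome 5, 139274091 to 139274130), SNHG32 (chromosome 6, 31834906 to 31834945) and ZFAS1 (chromosome 20, 49278632 to 49278671). RefSeq gives 1 start per gene. Over all GENCODE 29 transcripts the same test was met by 13% of 300 host transcripts and by 2.41% of 206694 transcripts, and 15 members had at least 1 such transcript, GAS5 among them with 6 of 29. The E-box CACGTG, which reads the same on both strands, was present in 2 of the 29 windows of 300 bases (SNHG7 and SNHG30), 6.9% against 7.26% of all windows.

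In parental cells the members with the highest exonic level per kilobase were SNHG16 (81.0 CPM per kb), which spans SNORD1A, SNORD1B and SNORD1C, and SNHG29 (76.0 CPM per kb), which spans SNORD49A, SNORD49B and SNORD65. GAS5, the host of 10 C/D snoRNAs and a decoy for the glucocorticoid receptor, followed at 52.1 CPM per kb. SNHG5, SNHG8, SNHG1, MIR17HG and SNHG17 lay between 20.7 and 29.8 CPM per kb. These values are mean CPM of the 3 parental libraries divided by the summed exon length, so they are levels and not differences.

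The members summed to 1570 to 1656 CPM in parental cells, 1770 to 1833 in clone 15 and 1889 to 1940 in clone 37, which is 0.157% to 0.194% of all gene counts. SNHG16, SNHG29 and GAS5 together held 54.3% to 61.0% of the members' counts in parental, 48.3% to 49.6% in clone 15 and 48.0% to 49.5% in clone 37. The summed levels of the 3 groups did not overlap. The share of the 3 most abundant members was higher in every parental library than in any library of either clone.

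**Figure D1:**
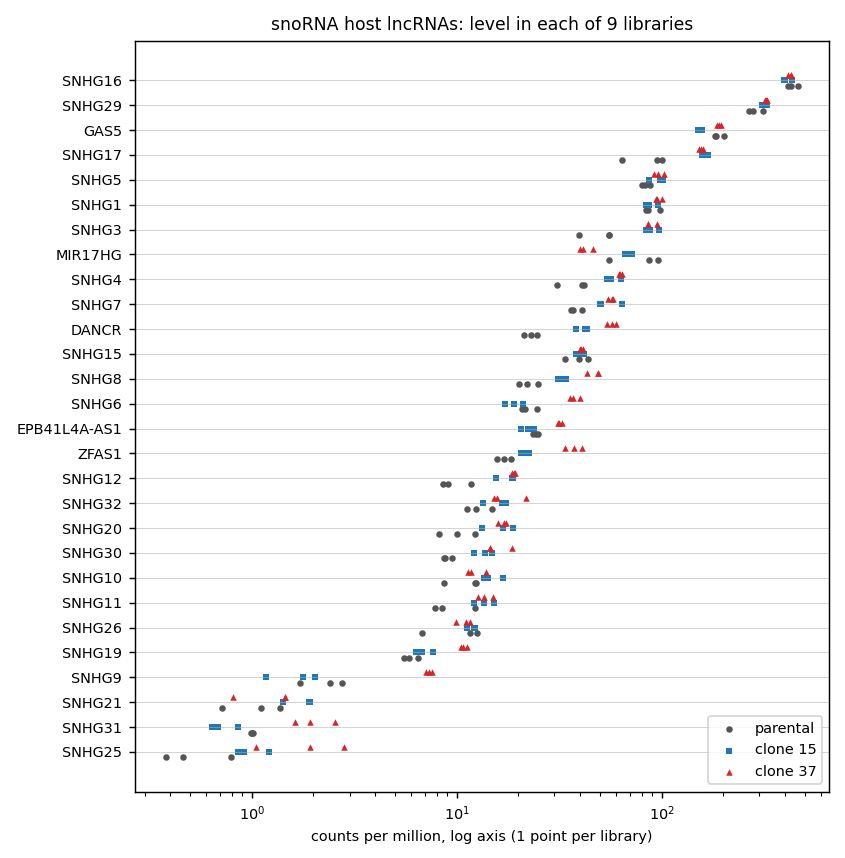
Level of the 28 tested host RNAs in each of the 9 libraries, in CPM on a log axis, with members in order of their mean level (circles, parental; squares, clone 15; triangles, clone 37). The clones lie to the right of parental in much of the middle of the plot, while SNHG16, SNHG29 and SNHG1 at the top lie close together and MIR17HG has its lowest values in clone 37.

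Of the 33 members, 28 had enough counts to be tested, the same 28 in all 3 comparisons. SNHG28 had no counts in any library. All 2242 bp of its exons in GENCODE 29 are also exons of ENSG00000256029, a protein-coding gene on the same strand that was counted too, and reads over both genes are left out, so its count says nothing of its level. SNHG27 and SNHG18 had a single count each, both in clone 15 libraries. SNHG22 had 1 to 10 counts per library. SNHG14, the long RNA of the Prader-Willi region that spans 83 C/D snoRNA genes, had 0 counts in all 3 parental libraries, 6, 2 and 5 in clone 15, and 1, 0 and 0 in clone 37. Of its reads in both orientations 0.534% were on its own strand.

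Most of the host RNAs were higher in clone 37 than in parental cells, SNHG25, SNHG9, DANCR, ZFAS1 and SNHG8 by more than 2-fold. Of the 28 tested, 20 were called by edgeR's quasi-likelihood test at a Benjamini-Hochberg adjusted p under 0.05, against 54.0% of all 16501 genes tested. The calls were 19 higher, 67.9% of the members against 26.7% of all genes, and 1 lower, 3.57% against 27.3%. The median log2 fold change was 0.63 over the members and 0.02 over all genes. Of the called increases 14 were at least 1.5-fold, against 9.44% of all genes. Without parental replicate 2 the counts were 20 higher and 1 lower, with a median of 0.53.

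In clone 15 the members' calls were fewer. Against parental, 13 of 28 members were called, 46.4% beside 51.4% of all 17703 genes tested. Of these, 12 were higher (42.9% against 25.1%) and 1 was lower (3.57% against 26.2%). The median log2 fold change was 0.29, against 0.02 over all genes, and 6 of the called increases were at least 1.5-fold, against 11.6% of all genes. Without parental replicate 2, 13 were higher and 2 lower, with a median of 0.23. Both clones were compared with the same parental libraries, so the 2 sets of calls are not independent.

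Between the clones 11 of the 28 members were called, 39.3% beside 57.7% of all 17712 genes tested, so the share was below that background. The direction was mostly 1 way: 10 were higher in clone 37 (35.7% against 28.7%) and 1 was lower (3.57% against 29.0%). The median difference was 0.12 on the log2 scale, against -0.00 over all genes. No member was called in opposite directions, and none was called lower in both clones with all libraries kept; without parental replicate 2, MIR17HG was. DANCR, SNHG8 and ZFAS1 were called higher in clone 37 than in clone 15 and higher in clone 15 than in parental. SNHG3, SNHG4, SNHG7, SNHG11, SNHG12, SNHG17, SNHG20 and SNHG30 were higher in both clones and not called between them.

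**Figure D2:**
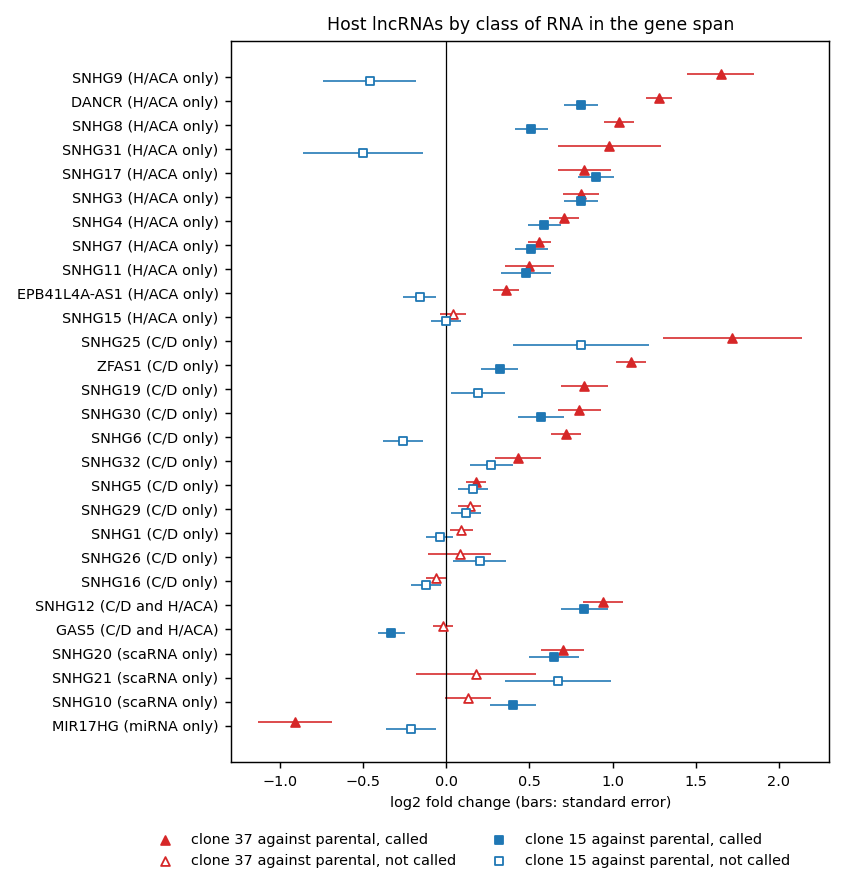
Fitted log2 fold change of each tested member against parental, with bars of 1 standard error, grouped by the class of small RNA gene in its span (triangles, clone 37; squares, clone 15; filled, called at an adjusted p under 0.05; open, not called). Of the 11 hosts of H/ACA snoRNAs alone, 10 were called higher in clone 37 and 7 in clone 15, and MIR17HG at the bottom is the only member called lower in clone 37.

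The hosts of H/ACA snoRNAs had the most calls. All 11 that span H/ACA genes alone were tested, and 10 were called higher in clone 37, with a median log2 fold change of 0.81, and 7 in clone 15, with a median of 0.51. For the 11 tested hosts of C/D genes alone, 7 were higher in clone 37 (median 0.43) and 2 in clone 15 (median 0.19). As shares these were 90.9% and 63.6% of the H/ACA hosts and 63.6% and 18.2% of the C/D hosts. Over all genes the shares were 26.7% in clone 37 and 25.1% in clone 15. With all libraries kept, the C/D hosts lay below that background in clone 15. Without parental replicate 2, the C/D hosts SNHG5, SNHG25 and SNHG29 were also called higher there, and the H/ACA host SNHG11 was not. The C/D hosts then lay above that background. The difference between the classes was not tested. Of the 6 tested members whose RefSeq start opened with the pyrimidine run printed above, 6 were higher in clone 37 and 3 in clone 15. The 18 tested members with a window but no such run had 10 and 9 higher. With any GENCODE transcript as the criterion, 10 of 14 members with the run and 9 of 14 without it were higher in clone 37, and 6 of 14 in each set were higher in clone 15.

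Among the H/ACA hosts, DANCR, which spans SNORA26 and keeps progenitor cells from differentiating, rose in the order parental, clone 15, clone 37. It had 21.3, 23.1 and 24.7 CPM in parental cells, 42.2, 38.2 and 43.3 CPM in clone 15 and 53.9, 57.3 and 60.2 CPM in clone 37, so the 3 groups did not overlap. DANCR rose by 1.28 on the log2 scale in clone 37 (SE 0.08, adjusted p 5.51e-10) and by 0.81 in clone 15 (SE 0.10, adjusted p 2.13e-07). Between the clones the difference was 0.48 (SE 0.07, adjusted p 2.56e-06). DANCR lies on chromosome 4 (52712404 to 52720351, plus strand); this and the gene positions that follow are those of GENCODE 29 on GRCh38.

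SNHG8 (chromosome 4, 118278709 to 118279823, plus strand), the host of SNORA24, followed the same order. Its level was 22.1, 24.8 and 20.2 CPM in parental cells, 34.2, 31.4 and 32.2 in clone 15 and 43.0, 48.8 and 49.1 in clone 37. Again no groups overlapped. SNHG8 rose by 1.04 in clone 37 (SE 0.09, adjusted p 4.45e-08) and by 0.51 in clone 15 (SE 0.10, adjusted p 0.000238), and the clones differed by 0.53 (SE 0.08, adjusted p 9.19e-07), all on the log2 scale.

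SNHG17 and SNHG3 were higher in both clones and not called between them. SNHG17 (chromosome 20, 38420588 to 38435353, minus strand), the host of the SNORA71 family, had 95.5, 63.8 and 100.3 CPM in parental cells, 157, 168 and 165 in clone 15 and 160, 155 and 153 in clone 37. Every clone library lay above every parental library, and parental replicate 2 was lowest. On the log2 scale it rose by 0.83 in clone 37 (SE 0.16, adjusted p 0.00432) and by 0.90 in clone 15 (SE 0.11, adjusted p 3.65e-06). Without parental replicate 2 these were 0.64 and 0.73, both still called. Between the clones SNHG17 differed by -0.06 (SE 0.05, adjusted p 0.314).

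SNHG3 (chromosome 1, 28505980 to 28510892, plus strand) spans SNORA73A and SNORA73B, H/ACA RNAs that act in the cleavage of the 18S rRNA precursor rather than as modification guides. It had 55.4, 39.4 and 55.3 CPM in parental cells, 83.5, 96.8 and 87.9 in clone 15 and 86.0, 94.5 and 85.6 in clone 37. Both clones lay above parental and overlapped each other. SNHG3 rose by 0.81 on the log2 scale in both, with an SE of 0.11 in clone 37 (adjusted p 7.05e-05) and 0.10 in clone 15 (adjusted p 2.08e-07), and by 0.65 and 0.68 without parental replicate 2. SNHG3 shares 242 bp of exon with RCC1 on the same strand, and RCC1 was also higher, by 0.48 in clone 37 and 0.62 in clone 15 on the log2 scale.

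SNHG4, the host of SNORA74A and SNORA74D, had 41.9, 31.0 and 40.9 CPM in parental cells, 54.0, 56.8 and 63.1 in clone 15 and 62.0, 63.8 and 62.8 in clone 37. SNHG4 rose by 0.71 in clone 37 (SE 0.09, adjusted p 3.25e-06) and by 0.59 in clone 15 (SE 0.10, adjusted p 1.91e-05), or 0.58 and 0.47 without parental replicate 2. It shares 626 bp of exon with MATR3 on the same strand. SNHG7, the host of SNORA17A and SNORA17B, had 40.7, 36.1 and 36.9 CPM in parental cells, 50.5, 64.2 and 50.1 in clone 15 and 54.6, 57.0 and 58.1 in clone 37. It rose by 0.56 (SE 0.07, adjusted p 3.99e-06) and by 0.51 (SE 0.10, adjusted p 0.000114) on the log2 scale. Of the reads over SNHG7 in both orientations, 48.2% were on its own strand, and it overlaps DIPK1B exons on the other strand.

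SNHG9 and EPB41L4A-AS1 were higher in clone 37 alone by these calls, and for both the difference between the clones was itself called. SNHG9 (chromosome 16, 1964959 to 1965509, plus strand), the host of SNORA78, had 2.40, 1.73 and 2.75 CPM in parental cells, 1.78, 2.03 and 1.18 in clone 15 and 7.30, 7.55 and 7.12 in clone 37. Clone 37 stood above both other groups, which overlapped. The log2 fold change of SNHG9 was 1.65 in clone 37 against parental (SE 0.20, adjusted p 1.95e-06), -0.46 in clone 15 (SE 0.28, adjusted p 0.174) and 2.11 between the clones (SE 0.20, adjusted p 4.33e-10), a 4.31-fold difference. Of the 75-base words of its longest transcript, 13.4% also occur in another gene.

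EPB41L4A-AS1 (chromosome 5, 112160526 to 112164276, plus strand), the host of SNORA13, had 24.5, 23.7 and 24.9 CPM in parental cells, 23.7, 22.3 and 20.6 in clone 15 and 31.6, 32.7 and 31.2 in clone 37. Clone 37 lay above both other groups. The fitted log2 fold change was 0.36 in clone 37 (SE 0.08, adjusted p 0.000806), -0.16 in clone 15 (SE 0.10, adjusted p 0.196) and 0.52 between the clones (SE 0.08, adjusted p 5.55e-06). With unstranded counts the first of these was 0.05 and not called, and clone 15 was called lower than parental (-0.43, adjusted p 0.00518). EPB41L4A shares 1659 bp of exon with it on the other strand.

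SNHG31, the host of SNORA70I, was near the limit of detection. It had 1.02, 1.01 and 0.995 CPM in parental cells, 0.682, 0.853 and 0.643 in clone 15 and 2.56, 1.94 and 1.62 in clone 37. Clone 37 lay above both other groups, with a log2 fold change of 0.98 against parental (SE 0.31, adjusted p 0.0118) and of 1.48 against clone 15 (SE 0.31, adjusted p 0.000221). The first was not called with the DESeq2 Wald test or without clone 37 replicate 1. SNHG15, the host of SNORA9, had 43.6, 33.9 and 39.6 CPM in parental cells, 41.7, 39.3 and 38.1 in clone 15 and 40.6, 41.2 and 39.8 in clone 37, and it was called in none of the comparisons between groups.

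**Figure D3:**
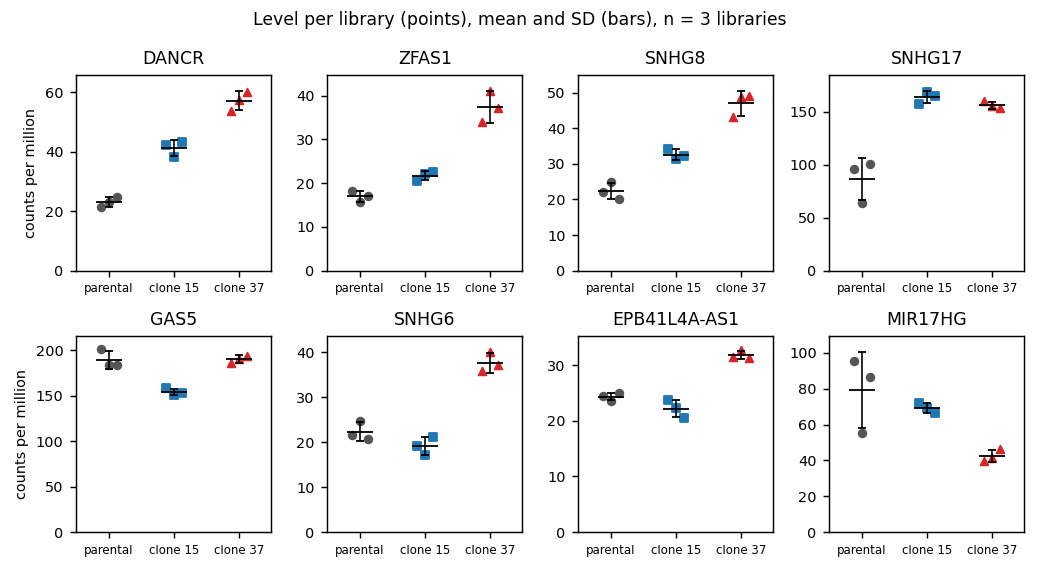
Level of 8 host RNAs per library in CPM (points), with the mean and the standard deviation of the 3 libraries of each group (bars), on axes that start at 0. DANCR, ZFAS1 and SNHG8 step up from parental to clone 15 to clone 37, SNHG17 is alike in both clones, GAS5 is lowest in clone 15, SNHG6 and EPB41L4A-AS1 are highest in clone 37, and MIR17HG is lowest in clone 37.

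Among the C/D hosts, ZFAS1 (chromosome 20, 49278178 to 49295738, plus strand) rose the most in clone 37 among those above 2 CPM. ZFAS1 is transcribed away from the start of ZNFX1 and hosts SNORD12, SNORD12B and SNORD12C. It had 18.3, 15.8 and 17.1 CPM in parental cells, 20.5, 22.0 and 22.5 in clone 15 and 33.9, 41.0 and 37.2 in clone 37, with no overlap between groups. The increase on the log2 scale was 1.11 in clone 37 (SE 0.09, adjusted p 2.16e-08) and 0.79 between the clones (SE 0.08, adjusted p 3.83e-09). The increase in clone 15 was 0.32 (SE 0.11, adjusted p 0.0167). It was not called with unstranded counts (0.22), against chromosome neighbours (0.15) or without parental replicate 3 (0.29). Of the 75-base words of its longest transcript 15.6% occur in another gene, and of its 100-base words 10.1%.

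SNHG6 (chromosome 8, 66921684 to 66926398, minus strand), the host of SNORD87, was higher in clone 37 than in both other groups. It had 21.6, 24.7 and 20.8 CPM in parental cells, 19.1, 17.2 and 21.2 in clone 15 and 35.8, 40.1 and 37.2 in clone 37. The log2 fold change of SNHG6 was 0.72 in clone 37 (SE 0.09, adjusted p 2.48e-06), -0.26 in clone 15 (SE 0.12, adjusted p 0.064) and 0.98 between the clones (SE 0.09, adjusted p 1.73e-10). The clone 15 difference was called lower in the fit of all 9 libraries (adjusted p 0.0328), without parental replicate 3 (-0.34) and without clone 15 replicate 3 (-0.31).

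SNHG25, the short host of SNORD104, had the largest fitted increase in clone 37 from few reads. It had 0.463, 0.791 and 0.383 CPM in parental cells, 0.919, 1.22 and 0.858 in clone 15 and 1.92, 2.81 and 1.05 in clone 37, the last from 21, 29 and 13 counts. Its log2 fold change was 1.72 in clone 37 (SE 0.42, adjusted p 0.00223) and 2.11 without parental replicate 2. It was 0.81 in clone 15 (SE 0.41, adjusted p 0.1), which became 1.23 (adjusted p 0.0489) without that library. Between the clones the groups overlapped. The call there (0.92, SE 0.33, adjusted p 0.018) was lost when libraries were thinned to the smallest total and when clone 15 replicate 1, clone 37 replicate 1 or clone 37 replicate 2 was left out, with 0.57 in the last case. Of its 75-base words 29.9% occur in another gene.

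The abundant C/D hosts differed little. SNHG16 had 426, 462 and 415 CPM in parental cells, 402, 432 and 395 in clone 15 and 429, 415 and 427 in clone 37. SNHG29 had 279, 312 and 266 CPM in parental cells, 319, 326 and 308 in clone 15 and 319, 325 and 322 in clone 37. SNHG1, the host of the 8 C/D snoRNAs SNORD22 and SNORD25 to SNORD31, had 98.6, 83.7 and 86.0 CPM in parental cells, 96.3, 86.6 and 83.5 in clone 15 and 93.96, 95.0 and 101 in clone 37. None of the 3 was called in any comparison, with log2 fold changes between -0.12 and 0.14. SNHG29 was called higher in both clones once parental replicate 2 was left out, by 0.21 in each on the log2 scale.

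SNHG5, the host of SNORD50A and SNORD50B, had 80.6, 87.3 and 83.1 CPM in parental cells, 97.8, 86.9 and 101.1 in clone 15 and 92.0, 102 and 96.3 in clone 37. The increase of 0.18 in clone 37 (SE 0.06, adjusted p 0.0178) was not called under 9 of the alternatives, where its size was 0.13 to 0.18, and clone 15 overlapped parental (0.16, SE 0.09, adjusted p 0.13). The clone 15 difference in SNHG5 was called higher without parental replicate 2 (0.21, adjusted p 0.0294), without clone 15 replicate 2 (0.24, adjusted p 0.0111) and against chromosome neighbours (0.30, adjusted p 0.00649). Of the less abundant C/D hosts, SNHG19 rose by 0.83 in clone 37 (SE 0.14, adjusted p 6.52e-05), with 5.54 to 6.51 CPM in parental and 10.4 to 11.2 CPM in clone 37. SNHG30 rose in both clones, by 0.80 and 0.57. SNHG32 rose by 0.43 in clone 37 (adjusted p 0.0142), a call lost without parental replicate 3 or clone 37 replicate 2. SNHG32 shares 418 bp of exon with ENSG00000285565 on the same strand. Of its 75-base words 35.1% occur in another gene. SNHG26 was called in no comparison, at 6.76 to 12.6 CPM.

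GAS5 and SNHG12 span both kinds of snoRNA gene and differed in direction. SNHG12 (chromosome 1, 28578538 to 28583132, minus strand) had 11.8, 8.56 and 9.03 CPM in parental cells, 15.6, 18.8 and 18.7 in clone 15 and 19.1, 18.6 and 19.2 in clone 37. It rose by 0.94 in clone 37 (SE 0.12, adjusted p 4.37e-06) and by 0.83 in clone 15 (SE 0.14, adjusted p 1.4e-05) on the log2 scale. GAS5 (chromosome 1, 173863900 to 173868882, minus strand) had 201, 183 and 184 CPM in parental cells, 158, 151 and 153 in clone 15 and 186, 191 and 194 in clone 37. Clone 15 lay below every other library, and clone 37 overlapped parental.

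GAS5 fell by 0.33 on the log2 scale in clone 15 (SE 0.08, adjusted p 0.00102), and clone 37 exceeded clone 15 by 0.31 (SE 0.05, adjusted p 1.74e-05). Against parental it did not differ in clone 37 beyond the error (-0.02, SE 0.06, adjusted p 0.81). It was the only member called lower in clone 15. None of its 75-base words occur in another gene.

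Of the hosts of scaRNAs, SNHG20 rose in both clones, by 0.70 in clone 37 (SE 0.13, adjusted p 0.000212) and by 0.65 in clone 15 (SE 0.15, adjusted p 0.000696). SNHG20 shares 460 bp of exon with SEC14L1 on the same strand. SNHG10 was called in clone 15 alone (0.40, SE 0.14, adjusted p 0.0185), and that call was lost without parental replicate 2 (0.25) and without clone 15 replicate 2. SNHG21 was called in no comparison, at 0.719 to 1.93 CPM. Of its 1053 bp of exon, 768 bp are shared with ENSG00000252690 on the same strand. Of its 75-base words 44.4% occur in another gene. SNHG11, an H/ACA host, rose by 0.50 in clone 37, a call lost without clone 37 replicate 1. It rose by 0.48 in clone 15, where its libraries overlapped parental and the call was lost without parental replicate 1, parental replicate 2 or clone 15 replicate 2.

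MIR17HG (chromosome 13, 91347820 to 91354579, plus strand) went the other way. Its 6 microRNA genes fall into seed families, and their mature sequences from RefSeq are shown because the seed, bases 2 to 8 in capitals, is what sets the targets of the cluster. The libraries measured the host transcript and not the mature microRNAs.
miR-17-5p: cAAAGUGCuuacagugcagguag
miR-20a-5p: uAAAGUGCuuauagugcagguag
miR-18a-5p: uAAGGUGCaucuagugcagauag
miR-19a-3p: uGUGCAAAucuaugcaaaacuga
miR-19b-3p: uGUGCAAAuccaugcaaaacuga
miR-92a-3p: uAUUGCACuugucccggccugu

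miR-17-5p and miR-20a-5p share a seed, as do miR-19a-3p and miR-19b-3p, and the seeds of miR-18a-5p and miR-92a-3p stand alone within the cluster. MIR17HG had 95.7, 55.3 and 86.3 CPM in parental cells, 71.8, 69.3 and 66.5 in clone 15 and 39.8, 41.2 and 46.4 in clone 37. Clone 37 lay below every other library. Clone 15 lay within the parental range, which parental replicate 2 widened.

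MIR17HG fell by 0.91 in clone 37 against parental (SE 0.22, adjusted p 0.0175) and by 0.70 against clone 15 (SE 0.07, adjusted p 2.01e-09) on the log2 scale. Without parental replicate 2 the first fell by 1.12 (SE 0.06, adjusted p 2.61e-33). In clone 15 it was -0.21 (SE 0.15, adjusted p 0.263), and without that library it fell by 0.40 (SE 0.07, adjusted p 0.000126). The call in clone 37 was lost without clone 37 replicate 2 (-0.88, adjusted p 0.0552) and against its chromosome neighbours (-0.45, adjusted p 0.165).

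Each member was also set against its neighbours, the 100 tested genes nearest to it on the same chromosome, by the median of their log2 fold changes. Around MIR17HG that median was -0.46 in clone 37 and -0.29 in clone 15. Around SNHG6 it was 0.23 in clone 37, -0.49 in clone 15 and 0.71 for clone 37 against clone 15, beside 0.98 for SNHG6 itself. The neighbours of DANCR stood at 0.11 and 0.02, those of ZFAS1 at 0.06 and 0.16, and those of SNHG8 at 0.09 and -0.09. The neighbours of GAS5 stood at -0.27 in clone 37 and -0.21 in clone 15.

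With that median subtracted, 20 members were higher and 1 was lower in clone 37, and 16 of the 20 calls were kept. MIR17HG, SNHG5, SNHG11 and SNHG32 lost theirs. GAS5 became higher than its neighbours (0.25, adjusted p 0.00185), as did SNHG10 (0.47), SNHG15 (0.36) and SNHG26 (0.53), and SNHG16 was the member that lay lower (-0.23). In clone 15, 10 were higher and 2 lower, and 7 of 13 calls were kept. GAS5 (-0.12, adjusted p 0.226), ZFAS1, SNHG7, SNHG10, SNHG11 and SNHG20 lost theirs, SNHG15 (0.31), SNHG26 (0.75) and SNHG5 became higher than their neighbours, and SNHG1 (-0.44) and SNHG16 (-0.43) lower. Between the clones 10 of 11 calls were kept, SNHG19 being the exception, with 13 higher and 1 lower. Calls kept at a size over 1.5 times smaller included those of SNHG7 in clone 37 (0.34), of SNHG4 in clone 15 (0.33) and, between the clones, of SNHG6 (0.28) and MIR17HG (-0.28).

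**Figure D4:**
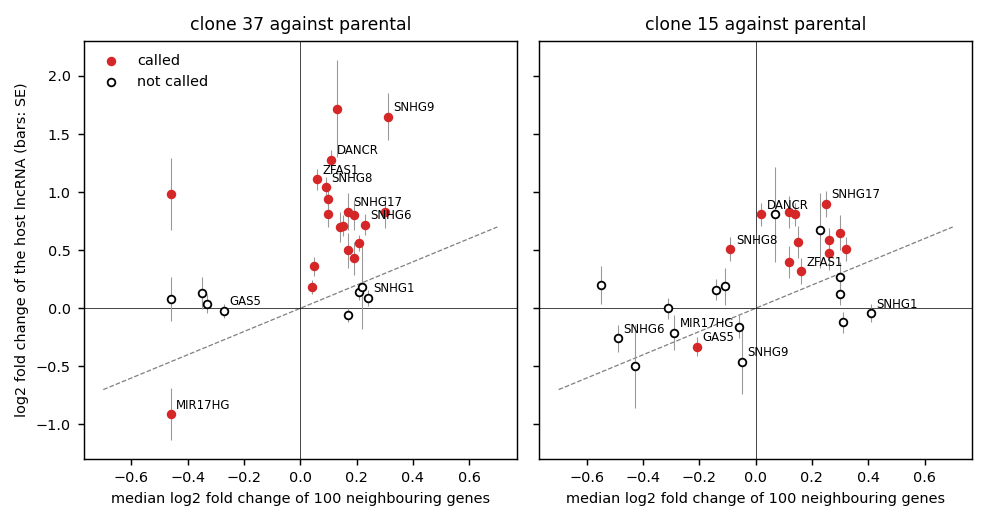
Log2 fold change of each tested member (vertical axis, bars of 1 standard error) against the median of its 100 nearest tested neighbours on the chromosome (horizontal axis, log2), for clone 37 and clone 15 against parental; filled points were called and the dashed line marks equality. DANCR and SNHG8 lie above the line with neighbours between -0.09 and 0.11, ZFAS1 lies far above it in clone 37 only, and MIR17HG has neighbours at -0.46 in clone 37.

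The snoRNA genes inside the hosts mostly had few or no counts. Of the 60 snoRNA and scaRNA genes that GENCODE 29 places inside members other than SNHG14, 37 overlapped an exon of some host transcript, and 35 of those had a mean count of 0. Counts of this kind leave out reads that overlap more than 1 gene. Only 4 reached a mean of 20 counts per library, all H/ACA RNAs. The 2 whose letters end in ACA 3 bases before the 3′ end are shown as their GENCODE 29 transcripts, on the plus strand. That box, for which the class is named, is in capitals.
SNORA73B: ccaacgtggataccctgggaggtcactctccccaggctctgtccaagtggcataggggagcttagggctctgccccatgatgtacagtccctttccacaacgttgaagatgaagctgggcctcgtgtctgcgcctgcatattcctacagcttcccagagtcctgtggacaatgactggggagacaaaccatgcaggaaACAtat
SNORA26: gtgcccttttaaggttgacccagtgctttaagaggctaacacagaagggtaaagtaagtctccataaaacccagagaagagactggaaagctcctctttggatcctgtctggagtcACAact

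SNORA73B (chromosome 1, 28508559 to 28508762), inside SNHG3, had 72.2, 59.7 and 64.7 CPM in parental cells, 99.8, 115 and 108.5 in clone 15 and 63.6, 85.5 and 76.2 in clone 37. Clone 15 lay above every other library, and clone 37 overlapped parental. It rose by 0.69 in clone 15 (SE 0.08, adjusted p 1.8e-07). The difference in clone 37 was 0.17 (SE 0.10, adjusted p 0.145). Between the clones SNORA73B was lower in clone 37 (-0.52, SE 0.08, adjusted p 1.68e-05), whereas its host SNHG3 differed by -0.01 (SE 0.06, adjusted p 0.944). The part of read length in this difference was not tested.

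The other 3 had fewer reads. SNORA26 (chromosome 4, 52713249 to 52713370), inside DANCR, had 6 to 42 counts per library and log2 fold changes of 0.83 in clone 37 (SE 0.40, adjusted p 0.0914) and of 0.93 in clone 15 (SE 0.40, adjusted p 0.0518). SNORA74D, inside SNHG4, rose by 1.02 in clone 37 (SE 0.24, adjusted p 0.00144) and by 0.90 in clone 15 (SE 0.25, adjusted p 0.00341). SNORA71B, inside SNHG17, rose by 0.82 (SE 0.21, adjusted p 0.00267) and 0.55 (SE 0.20, adjusted p 0.0236). The SNORA71B gene spans 272 bp in GENCODE 29, and the transcript sequence read for it there had 134 bases. Part of what was counted may therefore lie outside that transcript. None of these 3 was called between the clones.

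**Figure D5:**
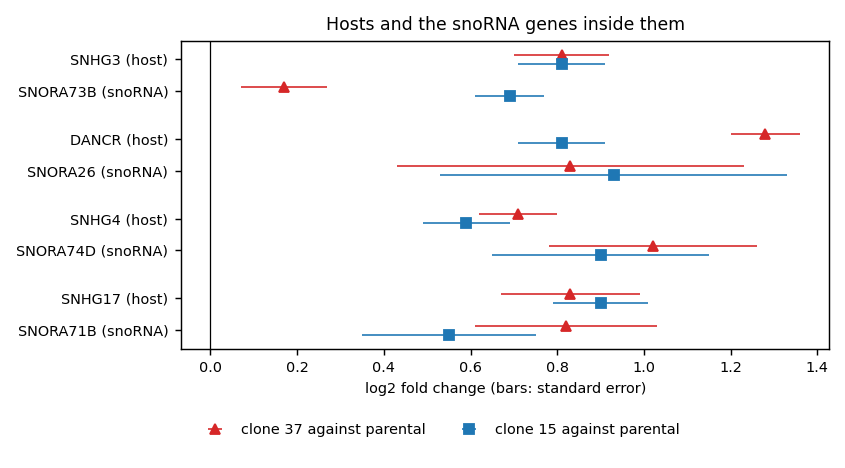
Log2 fold change against parental of 4 hosts and of the snoRNA gene counted inside each, with bars of 1 standard error (triangles, clone 37; squares, clone 15). SNHG3 stands at 0.81 in both clones while SNORA73B stands at 0.17 in clone 37 and 0.69 in clone 15, and SNORA26 has the widest bars and was called in neither clone.

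The proteins that bind these RNAs were examined as lists, beside 26.7% of all genes called higher and 27.3% lower in clone 37, and 25.1% and 26.2% in clone 15. Of 6 H/ACA core and assembly proteins, 5 were called higher (83.3%) and 0 lower in each clone, with a median log2 fold change of 0.55 in clone 37 and 0.54 in clone 15. NHP2, a core H/ACA protein, rose by 0.67 in clone 37 (SE 0.07, adjusted p 6.01e-07) and by 0.69 in clone 15 (SE 0.09, adjusted p 4.76e-07). Its value was 0.27 against chromosome neighbours in clone 37, still called, and 0.43 with unstranded counts in clone 15. NOP10, also a core protein, rose by 0.22 in clone 37 (adjusted p 0.0289), a call lost under 9 of the alternatives, and by 0.59 in clone 15, or 0.25 against its neighbours. GAR1, another core protein, rose by 0.75 and 0.59. NAF1, which assembles the particle at the site of transcription, rose by 0.89 in clone 37 (SE 0.06, adjusted p 4.27e-09) and was 0.02 in clone 15, a called difference between clones (0.87, SE 0.06, adjusted p 1.8e-12). Against its neighbours NAF1 stood at 0.52 in clone 37, still called.

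Of 11 C/D core and assembly proteins, clone 37 had 5 higher (45.5%) and 3 lower (27.3%, as over all genes), with a median of 0.07, while clone 15 had 5 higher and 2 lower (18.2%), with a median of 0.15. The core C/D protein NOP56 rose by 0.73 and 0.49, or 0.48 and 0.10 against its neighbours, the second not called. The AAA+ ATPase RUVBL2, used in assembly, was lower in clone 37 (-0.27) and higher in clone 15 (0.50), and against its neighbours it stood at 0.06 and 0.23. Its partner RUVBL1 rose by 0.49 in clone 15 and was not called in clone 37 (0.07), where it was called without parental replicate 2 (0.12) and against its neighbours (0.41). RPAP3, which works with both ATPases, rose by 0.37 in clone 37, or 0.20 and not called against its neighbours. In clone 15 RPAP3 was not called (0.15), except without parental replicate 2 (0.27) or clone 15 replicate 2 (0.25). Of 17 nonsense-mediated decay and exon junction factors, which act on spliced host RNA, 7 were higher and 4 lower in each clone, with medians of 0.12 and 0.15. The 64.7% called in that list was near the 54.0% and 51.4% of all genes called in either direction. SMG8 rose by 0.46 in clone 37 (0.21 against its neighbours) and 0.51 in clone 15, and NBAS fell by 0.52 and 0.61, changes that against its neighbours were not called.

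Protein-coding genes that host snoRNAs, leaving out ribosomal proteins, had 9 of 20 higher (45%) and 1 lower (5%) in clone 37, with a median of 0.17. In clone 15, 6 were higher and 6 lower, 30% each and near the shares over all genes, with a median of 0.01. PPAN, a ribosome assembly factor, rose by 0.87 in clone 37 (SE 0.14, adjusted p 3.36e-05) and by 0.70 in clone 15 (SE 0.15, adjusted p 0.000316). A readthrough gene overlaps PPAN on the same strand in GENCODE 29, so its counts are uncertain. HSPA8, a heat shock cognate chaperone, rose by 0.64 and 0.58, the second 0.38 against its neighbours. IPO7, a nuclear import receptor, rose by 0.34 in clone 37 (0.18 against its neighbours) and fell by 0.72 in clone 15. Among 11 MYC family and E2F genes linked to MIR17HG, clone 37 had 6 higher (54.5%) and 2 lower (18.2%), and clone 15 had 4 higher (36.4%) and 2 lower (18.2%). MYC itself, named after its values were seen, had 165, 177 and 164 CPM in parental cells, 124, 121 and 130.4 in clone 15 and 235, 235 and 232 in clone 37, with no overlap between groups. On the log2 scale MYC rose by 0.45 in clone 37 (SE 0.06, adjusted p 4.37e-06), fell by 0.46 in clone 15 (SE 0.08, adjusted p 3.32e-05) and differed by 0.91 between the clones (SE 0.05, adjusted p 4.4e-14), so it was highest in the clone where MIR17HG was lowest. Against its chromosome neighbours MYC stood at 0.35 in clone 37 and at 0.06 in clone 15, the latter not called. E2F3 rose by 0.60 in clone 37 (SE 0.06, adjusted p 3.73e-07), and E2F1 rose by 0.31 and 0.61, calls that were not kept against its neighbours. MYCN, at 1.78 CPM on average in parental, fell by 1.5 in clone 37 and by 0.81 in clone 15, where the call was lost under 8 of the alternatives, with -0.32 against its neighbours.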

How the data were processed

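RNA was measured in 9 directional libraries, each from 500 ng of total RNA depleted of rRNA and amplified for 13 cycles, per the labels' protocols. The values deposited are raw counts per gene and strand, in the layout of STAR's gene counts of uniquely mapped reads, and FastQC 0.11.9, STAR 2.7.10a and hg38 are named per the submitters' processing notes. The annotation release is not given in the sources used here. Reads that map to several places or overlap several genes are left out of such counts, which lowers members with repeated sequence or exons shared with another gene. The transcript strand (the fourth column) held 92.6% to 94.0% of stranded gene counts in each library and was used. The summary entries ahead of the genes stayed out of library sizes: pairs outside annotated exons were 19.2% to 34.6% of read pairs and multimapping pairs 4.59% to 13.95%.

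From these counts, each pair of groups was fitted on its own 6 libraries with edgeR 4.0.16 in R 4.3.3 (filterByExpr, TMM, robust glmQLFit, glmQLFTest). P-values were adjusted by Benjamini-Hochberg over all genes tested, and calls were made under 0.05. Standard errors are the log2 fold change over the root of F. CPM (counts-per-million) was taken over the library's gene counts. Symbols came from a table of gene names (60370 of 60683 identifiers), and positions, exon lengths and overlaps from GENCODE 29 (58496 identifiers). Start windows, mature microRNA sequences and small RNA classes came from RefSeq, GRCh38.p14, and snoRNA sequences from GENCODE 29 transcripts. No 2 libraries of a group agreed within counting noise, so none was taken for a repeat deposit of another; this does not show that the libraries came from separate cultures.

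Values in every library are given for the 5 members not named SNHG, for members with a mean of at least 20 CPM, and for the 4 largest called changes per direction in each comparison. From each other list the 2 largest called changes per clone are given. SNHG10, SNHG11, SNHG18 to SNHG21, SNHG26 to SNHG28, SNHG30 and SNHG32 are given by range or fold, RCC1 was named for its shared exon, and MYC after its values were seen. The members, lists, tests and alternatives were chosen with earlier results of these data known. The fits were repeated with DESeq2 1.42.0 (Wald test), with RLE size factors, with no filter or with 1 CPM required in 3 libraries, with unstranded counts, on all 9 libraries at once, with a replicate block, after thinning each library to the smallest total, with subtraction of the median of 100 chromosome neighbours, and leaving out each library. Tables were made in Python 3.11.15 with pandas 2.3.3 and numpy 2.4.6, and figures with matplotlib 3.10.9.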

Additional observations from a re-analysis of the deposited data

How the results depend on the processing

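Of the counts and medians over the members and all genes, 160 recomputed values stayed near the value reported and 20 moved. In clone 37 against parental the median was 0.51 with unstranded counts and 0.51 against chromosome neighbours. Leaving out 1 library gave 17 to 20 higher, 0 to 1 lower, a median of 0.53 to 0.65 and 7487 to 10027 genes called. In clone 15 against parental 2 members were lower with unstranded counts, in the fit of all 9 libraries and against neighbours, and leaving out 1 library gave 11 to 13 higher, 1 to 2 lower, a median of 0.23 to 0.39 and 7997 to 9071 genes. Between the clones 2 were lower with RLE size factors, the 1 CPM filter and the replicate block, and 3 with unstranded counts, and the median against neighbours was 0.20. Leaving out 1 library there gave 9 to 12 higher, 1 to 2 lower, a median of 0.06 to 0.15 and 9069 to 10454 genes. Same-numbered replicates did not deviate together (correlations of -0.18 to 0.05), so no pairing by number was seen. With 3 libraries per group this measure cannot show that the samples were unpaired. With the replicate block the higher and lower counts were 19 and 1 in clone 37, 12 and 1 in clone 15, and 10 and 2 between the clones, where SNHG10 was gained, and every call reported for a member was kept.

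Of the single genes, 1068 recomputed values kept their direction and side of the threshold, 44 lost the call and 14 gained one with the direction kept, and 12 changed sign, whether called or not. Against chromosome neighbours those that changed sign stood at 0.25 (GAS5), 0.06 (RUVBL2), -0.01 (NOP10) and -0.01 (E2F1) in clone 37, and at 0.08 (MIR17HG), 0.23 (SNHG6), 0.06 (MYC), -0.06 (RPAP3) and 0.05 (E2F3) in clone 15. Leaving out 1 library gave -0.08 to 0.02 for GAS5 in clone 37, the highest without parental replicate 1. NAF1 in clone 15 was -0.04 with unstranded counts and -0.02 without parental replicate 2. The cause was not tested. Other scalings moved the median of all genes by under 0.1 on the log2 scale. Low counts limit SNHG14, SNHG18, SNHG22 and SNHG27, which could not be tested, and SNHG21, SNHG25 and SNHG31 at about 1 CPM. How far depth, or reads left out as shared with other genes, set these counts was not tested.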
